A study of Mus musculus with 12 samples.

Results

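Rab GTPases are small proteins that give each membrane of the secretory and endocytic routes its identity. A Rab binds its membrane through prenyl groups and works as a switch: exchange factors load it with GTP, effectors such as tethers and motors bind the loaded form, and GTPase-activating proteins return it to the GDP form, which GDP dissociation inhibitors carry through the cytosol. In microglia and other macrophages these switches order the uptake, ripening and breakdown of phagosomes and the release of cytokines. The genes described here are all entries whose symbol is Rab followed by a number and at most a letter and a second number. This rule reads names only and took 58 of the 24062 entries, although the family was picked with earlier results of these data known.

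The cells were BV2, an immortalised line of mouse microglia, sorted by flow cytometry before polyA RNA was sequenced. Spi1, which encodes the myeloid transcription factor PU.1, was lowered by transient shRNA in the knockdown group and left with a scrambled hairpin in its control. In the other experiment Spi1 was raised transiently from a mouse cDNA, against an empty frame control. Each of the 4 groups has 3 libraries, numbered 1 to 3, and all come from this 1 line, which limits them as a model of microglia in tissue.

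Libraries held 22.3 to 33.1 megareads on genes. Spi1 was at 50.9, 42.4 and 52.3 FPKM in knockdown against 159, 169 and 168 FPKM in scrambled controls, where FPKM is reads per kilobase of gene and megaread of library. It was at 287, 224 and 206 FPKM in overexpression against 158, 117 and 131 FPKM in empty controls, without overlap. Limma gave this increase an adjusted p of 0.99993 in a fit that did not pair libraries by number. Same-numbered libraries deviated together in this experiment, and a paired result for Spi1 is not given. Of 12 microglia and macrophage markers, 10 were at 1 FPKM or more in every library and 2 were below 1 FPKM throughout. Their summed level was 2061 to 2228 FPKM in knockdown and 2494 to 2604 FPKM in scrambled controls. It was 2226 to 2515 FPKM in overexpression and 2260 to 2548 FPKM in empty controls. Of 5 endothelial markers only Kdr reached 1 FPKM, and the list summed to 74.3 to 78.9 FPKM in knockdown against 57.3 to 61.7 FPKM in scrambled controls. Marker lists of 6 other cell types stayed below 1 FPKM in sum in all 12 libraries. The part of these marker differences in the Rab results was not tested, and in bulk RNA fewer cells of a type cannot be told apart from less RNA per cell.

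Every fold change below is a difference of mean log2(FPKM + 1), treated group minus its own control. The added 1 shrinks the changes of weakly expressed genes. A gene is called where its limma p is below 0.05 after Benjamini-Hochberg (BH) adjustment across all tested genes. Nothing in the labels tells separate cultures from repeat libraries, so the spread behind each p may be technical.

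Rab4b and Rab1b carried the 2 largest Rab differences in knockdown, in opposite directions. Rab4b directs fast recycling from early endosomes to the plasma membrane, and Rab1b directs transport from the endoplasmic reticulum (ER) to the Golgi. Rab4b lies on chromosome 7 at chr7:27168424-27178896, minus strand, and Rab1b on chromosome 19 at chr19:5099205-5107072, minus strand (mm10, GENCODE M21). The DNA just upstream of both genes is shown because these are the genes on which the knockdown comparison turns. It comes from RefSeq (GRCm38.p6), reads 5′ to 3′ on the minus strand, and stops before the outermost annotated start. The Rab4b stretch is chr7:27178897-27179133 and the Rab1b stretch is chr19:5107073-5107246. Capitals mark CCAAT, or ATTGG where the box lies on the other strand.
Rab4b: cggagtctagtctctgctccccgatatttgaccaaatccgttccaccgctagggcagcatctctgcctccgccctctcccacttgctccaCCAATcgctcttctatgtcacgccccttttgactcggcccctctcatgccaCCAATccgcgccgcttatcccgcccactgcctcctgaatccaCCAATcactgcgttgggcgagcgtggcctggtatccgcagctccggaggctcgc
Rab1b: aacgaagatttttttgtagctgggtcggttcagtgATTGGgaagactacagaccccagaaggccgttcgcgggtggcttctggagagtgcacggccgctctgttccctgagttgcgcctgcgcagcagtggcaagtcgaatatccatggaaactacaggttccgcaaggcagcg

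The Rab4b stretch held CCAAT 3 times on the gene's own strand, and the Rab1b stretch held it 1 time on the other strand. Neither held GAGGAA, the core that PU.1 prefers, on either strand, nor the E-box CACGTG. Windows from 250 bases before to 50 bases after the RefSeq start were found for 48 of the 58 genes, 60 windows in all, and were searched on both strands. The longer PU.1 core GAGGAAGT was in 2 of the 60 windows, those of Rab2b and Rab32, and in 3.20% of all 32851 mouse windows. GAGGAA, which the longer core contains, was in 11 of the 60 windows and in 28.3% of all windows. CCAAT was in 26 of the 60 and in 37.4% of all, and CACGTG in 6 of the 60 and in 7.15% of all. A match is a run of letters and not a measured binding site.

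Endosomal and lysosomal Rabs held a larger part of the Rab FPKM of BV2 cells than secretory Rabs in every library. The 22 genes of these 2 classes held 58.9% to 62.2% of the summed Rab FPKM as deposited, and the 23 secretory genes, which act at the ER, the Golgi or secretory vesicles, held 29.2% to 32.3%. With GENCODE exon lengths in place of the lengths behind the deposited values, an alternative added after seeing the data, these shares were 48.2% to 52.1% and 38.3% to 42.2%. The summed level over all 58 genes was 1369 ± 16.8 FPKM in knockdown and 1437 ± 31.6 FPKM in scrambled controls, and 1381 ± 91.4 FPKM in overexpression and 1373 ± 75.2 FPKM in empty controls (SD, n = 3 each). Knockdown libraries were all below the scrambled ones, while the overexpression and empty ranges overlapped.

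Of the 58 genes, 36 were at 1 FPKM or more in all 12 libraries, 27 of them at 10 FPKM or more. Another 18 stayed below 1 FPKM in all 12. Rab7, which drives the fusion of late endosomes and phagosomes with lysosomes, was at 265 to 342 FPKM as deposited, with no other Rab gene above 147 FPKM. That first place depends on gene length. The length behind its FPKM, recovered from the values, was 624 bases against 2610 exon bases in GENCODE. Per GENCODE length Rab7 averaged 73.2 FPKM over 12 libraries and Rab5c 90.03 FPKM, and Rab7 had fewer reads than Rab1 in all 12 libraries. In addition 9.17% of its 100-base exon windows also occur in Rab7-ps1 or Gm5577, whose reads may have been counted with it or lost.

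Rab5c, which like Rab5a and Rab5b drives early endosome fusion, was at 106 to 147 FPKM as deposited. Rab1b followed at 62.6 to 109 FPKM and its paralogue Rab1, now named Rab1a, at 75.6 to 96.1 FPKM, so the order of these neighbours was not fixed across libraries. Rab14, Rab8a, Rab31 and Rab10 had means of 58.0, 56.5, 56.1 and 53.2 FPKM over 12 libraries with overlapping ranges, which gives them no order either. Rab14 and Rab31 move cargo between endosomes and the Golgi, and Rab8a and Rab10 carry vesicles to the plasma membrane.

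**Figure D1:**
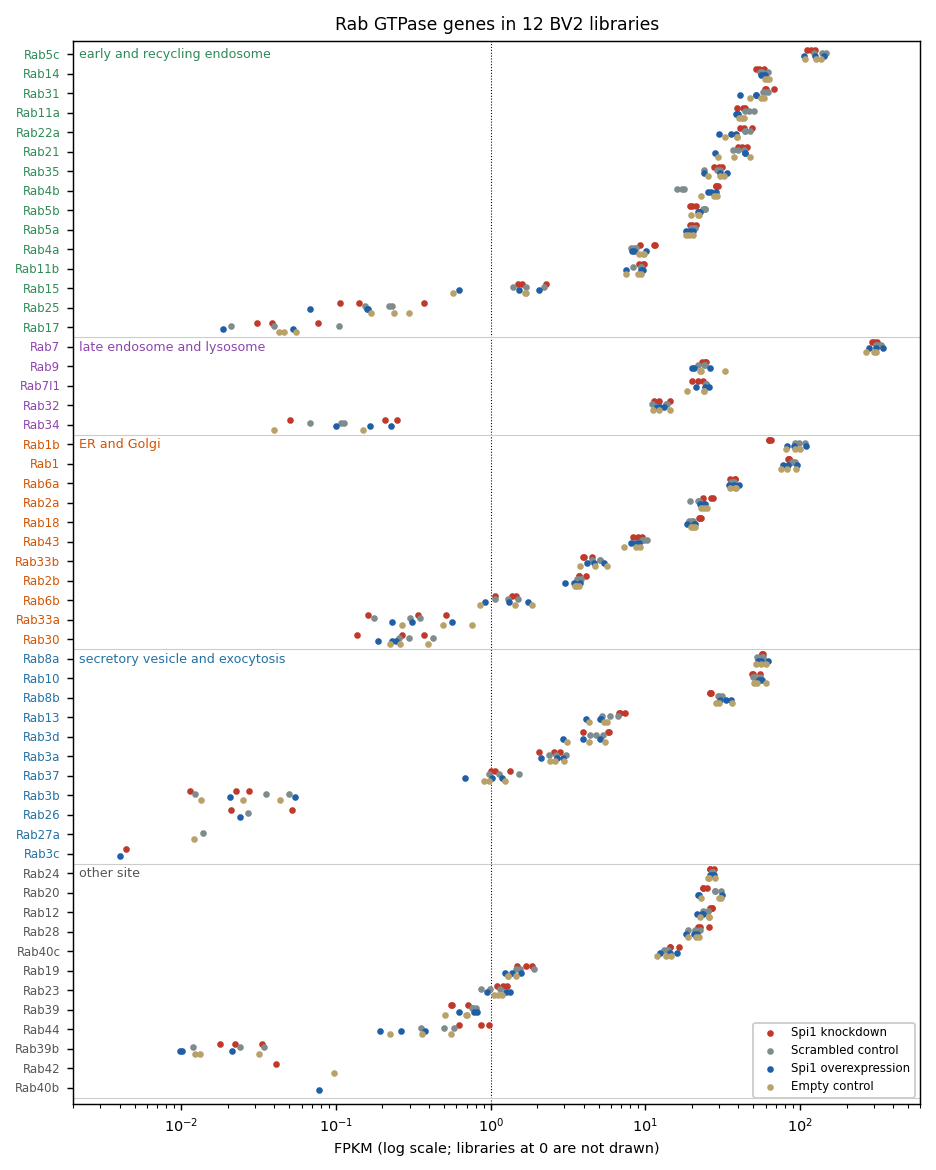
FPKM of the 54 Rab genes above 0 in at least 1 library, on a log axis, with 1 point for each of the 12 libraries, coloured by group and sorted by mean within each class; libraries at 0 are not drawn. On this deposited scale Rab7 stands above all other genes in every library, and the dotted line at 1 FPKM separates the low genes, most of which lie well to its left.

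The vesicle Rabs known from specialised secretory cells were nearly silent. Rab27a, which docks lysosome-related organelles and exosome carriers at the plasma membrane, had a single read in scrambled library 3 and in empty library 3 and none in the other 10 libraries. Its relative Rab27b had no read in any library. At these depths 0 reads allow up to 0.0907 to 0.134 reads per megaread, depending on the library, a limit that covers counting error only. Rab38, which serves melanosomes and other lysosome-related organelles, was also at 0 in all 12, whereas its close relative Rab32 was at 11.1 to 14.5 FPKM. Rab36 and Rab9b complete the 4 genes listed at 0 throughout. Rab3b, Rab3c and Rab26, which act in regulated exocytosis, reached at most 0.0544, 0.00443 and 0.0523 FPKM. Rab3d and Rab3a of the same group were higher, at 2.94 to 5.87 and 2.04 to 3.05 FPKM.

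The 14 low genes above 0 were Rab3b, Rab3c, Rab26 and Rab27a of the vesicle class, Rab17, Rab25, Rab30, Rab33a and Rab34 of the endosomal, lysosomal and Golgi classes, and Rab39, Rab39b, Rab40b, Rab42 and Rab44 of other sites. With the 4 at 0 these 18 genes had a mean below 1 FPKM in each experiment and were not tested. The remaining 40 were tested in both experiments. They had 38 to 7612 reads per library. In 27 of the 40 the highest of 12 libraries was less than 1.5 times the lowest, and 3 genes, Rab15, Rab6b and Rab37, varied 2 times or more. These 3 are among the lowest of the tested genes.

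Lowering Spi1 was asked to show how the transcriptome of these cells depends on PU.1. In knockdown, 7 of the 40 tested Rab genes were called, 3 higher and 4 lower, which is 17.5% against 26.3% of all genes tested. By direction the share of all genes was 17.4% higher and 8.86% lower. The median change of the Rab genes was 0.01 and that of all tested genes 0.07 on the log2 scale. Rab genes therefore were not called more often than other genes, and the results below concern single members.

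Rab4b rose the most. It was at 29.5, 28.5 and 28.6 FPKM in knockdown against 17.9, 16.0 and 17.4 FPKM in scrambled controls. All knockdown libraries lay far above the controls, with no overlap. The log2 fold change was 0.73 ± 0.06 (SE) with an adjusted p of 0.00150 by limma. Rab4a, the paralogue with the same recycling role, was at 11.3, 9.24 and 11.5 FPKM in knockdown against 8.41, 8.04 and 8.68 FPKM in scrambled controls. It rose by 0.31 ± 0.09 (limma adjusted p = 0.0401), and knockdown library 2 lay closest to the controls.

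The third recycling or early endosome gene called was Rab5b, which fell. Its levels were 20.1, 19.4 and 21.3 FPKM in knockdown against 24.4, 23.4 and 24.3 FPKM in scrambled controls, without overlap, a log2 change of -0.24 ± 0.06 (limma adjusted p = 0.0295). Rab5c was at 111, 124 and 117 FPKM in knockdown against 122.8, 147 and 138 FPKM in scrambled controls and did not pass (log2 change -0.21, limma adjusted p = 0.112). Rab5a was nearly the same in both groups, at 20.2, 21.3 and 19.4 FPKM in knockdown against 21.03, 19.8 and 20.5 FPKM in scrambled controls. The recycling endosome genes Rab11a and Rab11b did not pass either. Rab11a was at 44.4, 38.9 and 43.1 FPKM in knockdown against 50.2, 44.0 and 46.8 FPKM in scrambled controls, and Rab11b at 9.72, 9.81 and 9.14 FPKM against 8.31, 9.39 and 9.32 FPKM. In all, 2 early or recycling endosome genes were higher than in scrambled controls and 1 was lower among 13 tested. The scrambled controls lay below all other libraries for Rab4b and above them for Rab5b. For Rab4b, Rab4a and Rab5b the knockdown libraries overlapped the empty controls of the other experiment.

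None of the 4 tested late endosome and lysosome genes was called by limma, and 1 of them, Rab7l1, had an unadjusted p below 0.05. Rab7 was at 299, 314 and 291 FPKM in knockdown against 308, 335 and 320 FPKM in scrambled controls. These ranges overlap, and the log2 change of -0.09 had a 95% interval of -0.24 to 0.06. Rab32 was at 14.5, 11.4 and 12.3 FPKM in knockdown against 13.6, 11.1 and 13.9 FPKM in scrambled controls, with an interval of -0.28 to 0.25. Rab9, which returns receptors from late endosomes to the Golgi, had a log2 change of 0.04. Rab7l1, now named Rab29, which recruits the kinase LRRK2, had a log2 change of -0.18 (limma adjusted p = 0.107), and its knockdown libraries all lay below the controls.

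Among ER and Golgi genes Rab1b fell the most of all Rab genes. It was at 62.9, 65.2 and 62.6 FPKM in knockdown against 92.4, 107 and 99.05 FPKM in scrambled controls. The groups were far apart, with a log2 change of -0.64 ± 0.07 and a limma adjusted p of 0.00280. Its paralogue Rab1 was at 85.4, 84.7 and 83.0 FPKM in knockdown against 88.9, 92.5 and 89.9 FPKM in scrambled controls. Those groups did not overlap, but the log2 change of -0.10 did not pass (limma adjusted p = 0.229).

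Rab2a, which acts at the Golgi and in lysosome fusion, was at 23.7, 26.5 and 27.3 FPKM in knockdown against 19.5, 21.8 and 22.2 FPKM in scrambled controls. It rose by 0.27 ± 0.08 (limma adjusted p = 0.0452), with knockdown library 1 near the controls. Of 9 tested ER and Golgi genes, 1 rose and 1 fell. In 6 of the 9 the knockdown libraries did not overlap the controls, 2 above and 4 below, and in 15 of all 40 Rab genes, 7 above and 8 below. Among all tested genes 45.4% did not overlap, 30.3% above and 15.1% below.

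Of the 7 tested genes of secretory vesicles and exocytosis only Rab8b was called. It was at 26.4, 26.3 and 26.3 FPKM in knockdown against 31.3, 29.8 and 29.4 FPKM in scrambled controls, a fall of 0.19 on the log2 scale (limma adjusted p = 0.0478). Rab8a and Rab10 did not move with it. Rab8a was at 56.5, 58.0 and 57.2 FPKM in knockdown against 52.5, 57.7 and 57.1 FPKM in scrambled controls. Rab10 was at 54.9, 49.95 and 49.2 FPKM in knockdown against 54.8, 50.4 and 50.01 FPKM in scrambled controls.

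Of the 7 tested genes of other sites Rab20 was called. It encodes a Rab of ripening phagosomes in macrophages. It was at 23.5, 25.0 and 23.7 FPKM in knockdown against 28.1, 31.0 and 28.3 FPKM in scrambled controls. The groups did not overlap, and the log2 change was -0.26 ± 0.07 (limma adjusted p = 0.0264). The endosomal and lysosomal genes together thus had 3 calls in 17 and the secretory genes 3 calls in 16, and no difference between these classes was tested.

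**Figure D2:**
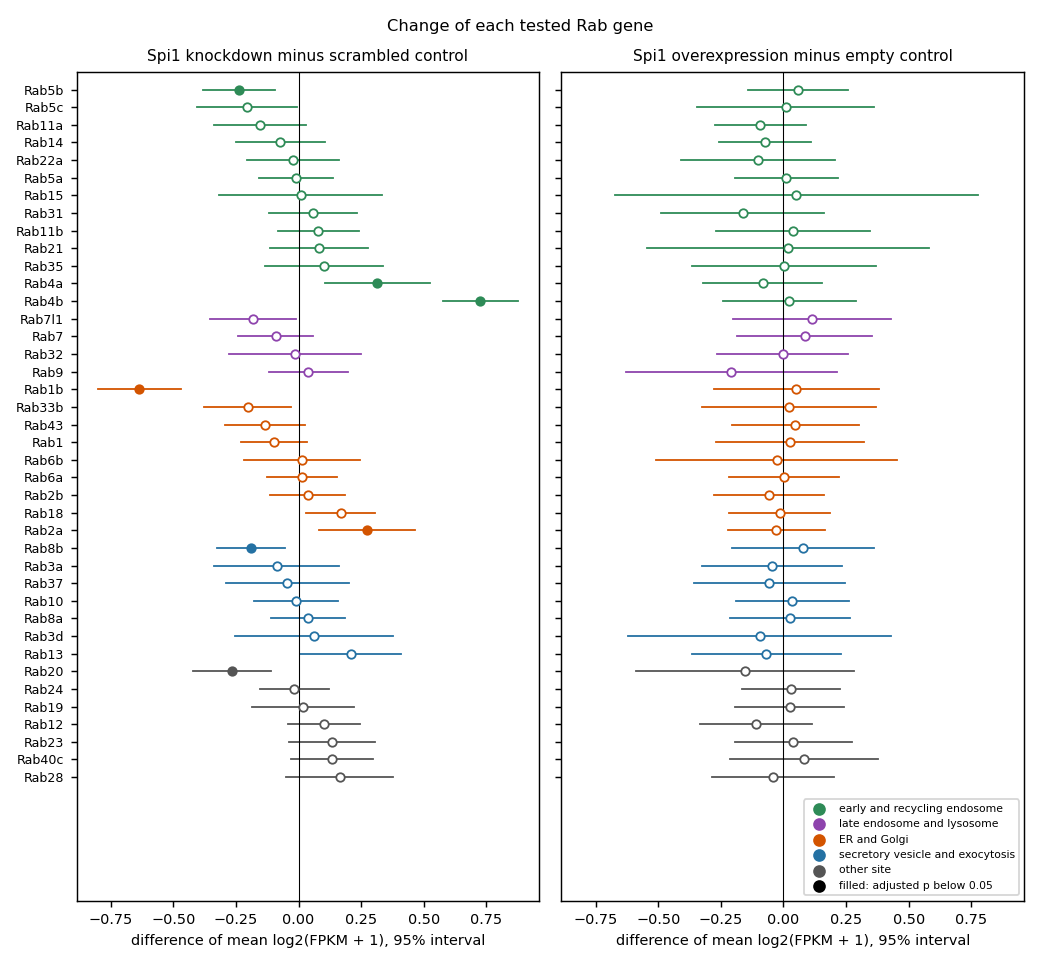
Difference of mean log2(FPKM + 1) with its 95% interval for each of the 40 tested Rab genes, in knockdown minus scrambled controls (left) and overexpression minus empty controls (right), in the same order and coloured by class. Rab4b and Rab1b stand apart on the left at 0.73 and -0.64, 7 points are filled for an adjusted p below 0.05, and on the right all 40 intervals span 0.

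Only the Rab4b and Rab1b calls held when each library was left out in turn, with adjusted p by limma of at most 0.0115 and 0.0170. The Rab5b and Rab8b calls were lost whichever of the 6 libraries was left out, at limma adjusted p between 0.0530 and 0.128. Rab20 kept its call only without scrambled library 1 (adjusted p = 0.0400), Rab2a only without knockdown library 1 (0.0441) and Rab4a only without knockdown library 2 (0.0193). Their other left-out fits gave adjusted p by limma up to 0.142. A fit with fewer libraries has less power for every gene, and the share of all genes called in these fits is not given. A lost call is therefore not a trait of these genes alone.

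Libraries with the same number shared part of their deviation, and with the number as a block 12 Rab genes were called, 5 higher and 7 lower. Under the block 45.3% of all genes were called, 30.6% higher and 14.7% lower. The block added Rab13 and Rab18 to the higher genes and Rab5c, Rab33b and Rab11a to the lower ones. Scaling by median of ratios in place of library totals left 1 higher and 7 lower, since Rab4a and Rab2a lost their calls and Rab5c, Rab33b and Rab7l1 gained one as lower. Under that scaling 24.1% of all genes were called, 1251 higher (11.2%) and 1454 lower (13%), against 1952 higher and 993 lower without it. The directions of the 7 calls were the same under both scalings.

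Part of the reads of some genes cannot be assigned with certainty, because their exons overlap or repeat those of another gene. Rab4b shares 1280 exon bases on its own strand with Gm21983, and 49.3% of its 100-base windows occur in that gene, which has no value here. Rab20 shares 356 exon bases with the lncRNA E230013L22Rik on the other strand, which the TruSeq v2 kit does not tell apart. Rab5b and Rab8b share 6.14% and 3.88% of their windows with Gm13991 and Gm20689. Rab1b, Rab4a and Rab2a have neither exon overlap nor shared windows.

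**Figure D3:**
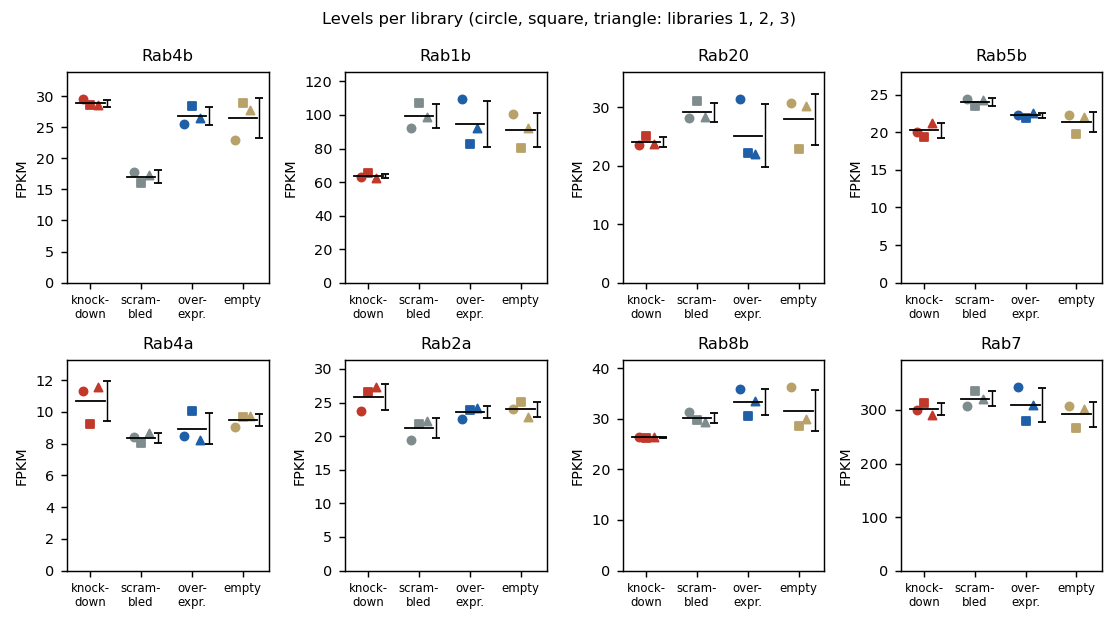
FPKM of the 7 called Rab genes and of Rab7 in each library, from an axis that starts at 0, with group means as lines and SD as bars (n = 3). In Rab4b the scrambled controls lie below all other libraries, in Rab1b the knockdown libraries do, and in Rab7 the knockdown libraries overlap their scrambled controls and the overexpression libraries their empty controls.

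The 2 experiments had separate controls, and their levels side by side show where each group stood. The tables were deposited separately, so such levels are given without a test. Rab4b averaged 28.9 ± 0.53 FPKM in knockdown and 17.1 ± 0.99 FPKM in scrambled controls, and 26.8 ± 1.46 FPKM in overexpression and 26.5 ± 3.15 FPKM in empty controls (SD, n = 3 each). The scrambled controls were the low group, and knockdown was near the empty controls. Rab1b averaged 63.6 ± 1.43 FPKM in knockdown and 99.5 ± 7.33 FPKM in scrambled controls, and 94.7 ± 13.5 FPKM in overexpression and 91.1 ± 9.97 FPKM in empty controls (SD, n = 3 each). Here knockdown was the low group, below both kinds of control. Among the other called genes the scrambled libraries lay outside the empty range for Rab4a, Rab2a and Rab5b, and the knockdown libraries for Rab8b. Hairpin and plasmid, and any difference in handling between the experiments, cannot be told apart in these levels.

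The share of a paralogue within its subfamily does not depend on the scaling of a library. Rab1b made up 42.4%, 43.5% and 43.0% of Rab1 and Rab1b FPKM in knockdown against 51.0%, 53.6% and 52.4% in scrambled controls. Knockdown cells held more Rab1 than Rab1b mRNA per length and scrambled controls slightly more Rab1b, and an exact permutation test gave p = 0.1, the smallest that 3 against 3 allows. In overexpression the share was 53.2%, 51.7% and 52.6%, against 51.7%, 51.6% and 52.8% in empty controls.

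Rab4b made up 72.3%, 75.5% and 71.3% of Rab4a and Rab4b FPKM in knockdown against 68.0%, 66.5% and 66.7% in scrambled controls (exact permutation p = 0.1). Rab4b thus differed more than Rab4a. Rab8b made up 31.9%, 31.2% and 31.5% of Rab8a and Rab8b FPKM in knockdown against 37.4%, 34.0% and 34.0% in scrambled controls (exact permutation p = 0.1). The shares of Rab5b and Rab5c in their subfamily and of Rab11b in its own overlapped between knockdown and scrambled controls.

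**Figure D4:**
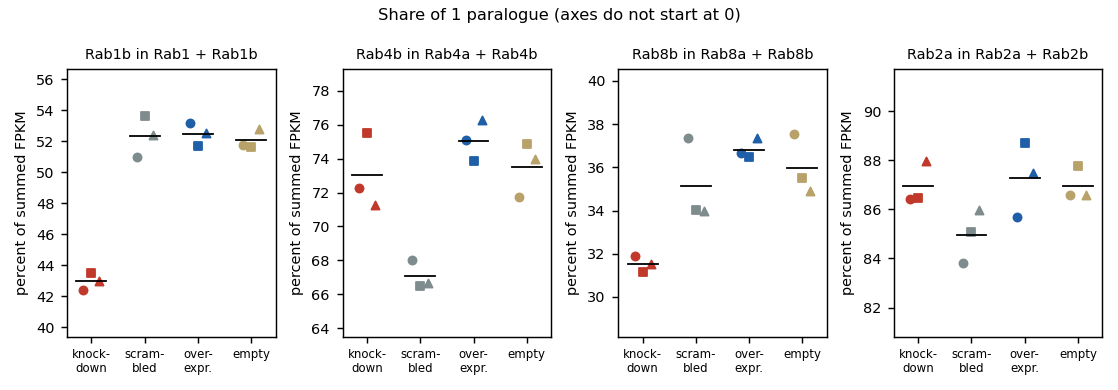
Share of 1 paralogue in the summed FPKM of its subfamily, in percent, for each library, with group means as lines and axes that do not start at 0. The Rab1b share is near 43.0% in knockdown and near 52% in the 3 other groups, while the low group for Rab4b is the scrambled control.

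Rab1b and Rab4b weighed on the sums of their classes. ER and Golgi Rabs summed to 252 ± 4.16 FPKM in knockdown and 288 ± 8.96 FPKM in scrambled controls (SD, n = 3 each), without overlap. Without Rab1b the class summed to 189 ± 3.04 FPKM in knockdown and 189 ± 2.38 FPKM in scrambled controls, and the ranges overlapped. Early and recycling endosome Rabs summed to 486 ± 8.20 FPKM in knockdown and 495 ± 9.31 FPKM in scrambled controls, and the ranges overlapped. Without Rab4b the sums were 457 ± 8.11 FPKM in knockdown and 478 ± 10.2 FPKM in scrambled controls, and the ranges no longer overlapped. The largest member of that sum was Rab5c, which was not called. Rab5c averaged 117 ± 6.78 FPKM in knockdown and 136 ± 12.2 FPKM in scrambled controls. Late endosome and lysosome Rabs summed to 360 ± 9.502 FPKM in knockdown and 382 ± 13.5 FPKM in scrambled controls, mostly Rab7.

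Genes that load, unload and carry Rabs were read from 5 lists of regulators and effectors with 146 genes found and 125 tested. In knockdown 8 of the 125 were higher and 13 lower, 16.8% called against 26.3% of all genes. Of all genes 17.4% were higher and 8.86% lower. With the replicate number as a block 17 of the 125 were higher and 27 lower, 35.2% against 45.3% of all genes (30.6% higher, 14.7% lower). Median-of-ratios scaling gave 5 higher and 26 lower, 24.8% against 24.1% of all genes (11.2% higher, 13% lower). Among the 8 tested genes of GDP dissociation inhibitors and prenylation only Gdi2 was called, the widely expressed inhibitor that recycles Rabs. It was at 107, 113 and 117 FPKM in knockdown against 124, 134 and 136 FPKM in scrambled controls, a fall of 0.22 (limma adjusted p = 0.0488) that held only without scrambled library 1.

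Of 33 tested exchange factors 1 rose and 2 fell. Ankrd27, the exchange factor of Rab21 also known as Varp, was at 14.5, 16.7 and 16.6 FPKM in knockdown against 10.7, 11.2 and 11.4 FPKM in scrambled controls and rose by 0.48 (limma adjusted p = 0.00573). Rabgef1, also known as Rabex-5, loads Rab5 on early endosomes. It was at 13.2, 13.2 and 13.3 FPKM in knockdown against 17.4, 16.7 and 16.0 FPKM in scrambled controls and fell by 0.31 (limma adjusted p = 0.0113). Dennd1b, which loads Rab35, was at 9.23, 9.36 and 9.02 FPKM in knockdown against 11.9, 11.995 and 11.2 FPKM in scrambled controls. It fell by 0.32 (limma adjusted p = 0.0106). Knockdown overlapped the empty controls for Ankrd27, at 11.9 to 15.3 FPKM, and for Dennd1b, at 7.70 to 11.6 FPKM. For Rabgef1 the knockdown libraries lay below all others.

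Of 35 tested GTPase-activating proteins 2 rose and 4 fell. Tbc1d9, which carries the TBC domain of this family, was at 16.8, 15.3 and 15.8 FPKM in knockdown against 30.7, 25.3 and 25.0 FPKM in scrambled controls, the largest change among these regulators (log2 change -0.72, limma adjusted p = 0.00368). It was at 18.6, 20.2 and 20.8 FPKM in overexpression against 17.6, 17.3 and 17.5 FPKM in empty controls, so the scrambled controls lay above the other 9 libraries and the knockdown libraries below them. Tbc1d4, which acts on Rab10 and Rab8a in other cells, rose by 0.38 (limma adjusted p = 0.0115). Its scrambled controls, at 4.19 to 4.88 FPKM, lay below all other libraries, while knockdown at 5.74 to 6.34 FPKM overlapped the empty controls at 5.74 to 6.68 FPKM. Tbc1d5, which acts on Rab7 with the retromer, fell by 0.29 (limma adjusted p = 0.0140), a call lost without knockdown library 2 at an adjusted p of 0.0501. Sgsm1 fell by 0.30, a call kept in 2 of 6 fits that left out a library.

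Of 33 tested effectors of endosomal and lysosomal Rabs 3 rose and 4 fell. Eea1, the early endosome tether that binds Rab5, was at 19.6, 19.0 and 19.1 FPKM in knockdown against 28.7, 25.3 and 26.2 FPKM in scrambled controls. Every knockdown library was lower, with a log2 change of -0.45 (limma adjusted p = 0.00520), and the empty controls at 27.4 ± 2.19 FPKM were like the scrambled ones. Vps18 and Vps16 are both core subunits of the HOPS and CORVET tethers, and they moved in opposite directions. Vps18 was at 24.01 ± 0.70 FPKM in knockdown and 31.6 ± 1.99 FPKM in scrambled controls (SD, n = 3 each) and fell by 0.38. Vps16 was at 40.4 ± 1.21 FPKM in knockdown and 32.4 ± 1.32 FPKM in scrambled controls (SD, n = 3 each) and rose by 0.31, a call lost without knockdown library 3 at a limma adjusted p of 0.0509. The Vps16 scrambled controls lay below all other libraries, with the empty controls at 36.6 to 40.7 FPKM near knockdown, whereas for Vps18 the knockdown libraries lay below all others. Ehd1, which cuts recycling tubules, fell by 0.42 (limma adjusted p = 0.0146), and its scrambled controls lay above all other libraries.

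Of 16 tested effectors of secretory Rabs 2 rose and 2 fell. Gcc2, a golgin that binds several Golgi Rabs, rose by 0.29 and lost its call without knockdown library 2 or 3. The Golgi stacking proteins went apart: Gorasp2, a partner of Rab2, fell by 0.27 and Gorasp1 rose by 0.23. Ehbp1l1, an effector of Rab8 and Rab10, fell by 0.36. These 3 calls held in 1, 1 and 3 of the 6 fits that left out a library. The Gorasp1 call was also lost after median-of-ratios scaling (limma adjusted p = 0.0931). Among the 16 named regulators and effectors the knockdown libraries lay outside the other 9 libraries in 8, and the scrambled controls in 4. These genes were named because they were called between these groups, which favours such separation. The share over all tested genes was not taken, so the counts do not show which group moved.

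Raising Spi1 asked the opposite question. In overexpression limma called 0 of the 40 Rab genes and 0% of the 11217 genes tested. Without a block an unadjusted limma p below 0.05 was reached by 0 of the 40 and by 122 genes in all. Limma-voom on recovered reads also called 0. With the replicate number as a block 0 of the 40 and 0.116% of all genes were called, 0.0802% higher and 0.0357% lower. The block gave an unadjusted limma p below 0.05 in 3 of the 40, the smallest 0.00866, and in 1577 genes in all. Log2 changes of the Rab genes ran from -0.21 to 0.11. Rab11a had the smallest unadjusted limma p without the block, 0.265. It was the only Rab gene without overlap, at 38.6, 39.9 and 39.4 FPKM in overexpression against 40.5, 42.1 and 43.2 FPKM in empty controls. Among all tested genes 4.06% did not overlap, 1.66% above and 2.4% below.

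The 95% interval lay within 0.5 log2 units of 0 for 34 of the 40 genes in overexpression and for 37 of the 40 in knockdown. Changes of the size of Rab4b or Rab1b in knockdown were therefore outside the intervals of most genes in overexpression. Spi1 itself had a log2 change of -1.75 in knockdown and 0.81 in overexpression. The intervals therefore do not compare the treatments at an equal change of Spi1. The Rab4b interval in overexpression was -0.24 to 0.29, and that of Rab1b -0.28 to 0.38. These intervals are from the fits without the block. The 125 tested regulators and effectors had 0 calls in overexpression by limma with or without the block. An unadjusted limma p below 0.05 was reached by 0 of them without the block and by 17 with it.

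In the overexpression experiment libraries were often set apart by their number. Overexpression library 2 and empty library 2 both lay outside the range of the other 4 libraries in 25 of the 40 Rab genes, 15 below and 10 above, against 60.9% of all tested genes, 41.3% below and 19.6% above. In the knockdown experiment the libraries numbered 2 did so in 9 of the 40, 4 below and 5 above, against 16.8% of all genes, 8.03% below and 8.74% above. Rab21, which acts in integrin recycling, was at 28.3 FPKM in overexpression library 2 and 29.5 FPKM in empty library 2, and at 37.7 to 47.7 FPKM in the other 4. Rab15 was at 0.624 FPKM in overexpression library 2 and 0.575 FPKM in empty library 2, against 1.53 to 2.07 FPKM in the other 4. Rab9 went the other way, at 26.1 FPKM in overexpression library 2 and 32.8 FPKM in empty library 2.

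Of the 13 tested early and recycling endosome genes, 8 were below the other libraries in both libraries numbered 2, and only Rab4b of that class was above. Among the 9 Rab genes with the highest mean FPKM as deposited, Rab7, Rab5c, Rab1b, Rab1, Rab8a and Rab31 were on the low side. In the others, Rab14, Rab10 and Rab11a, the libraries numbered 2 were not both set apart on the same side. The labels name no batch behind these numbers.

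**Figure D5:**
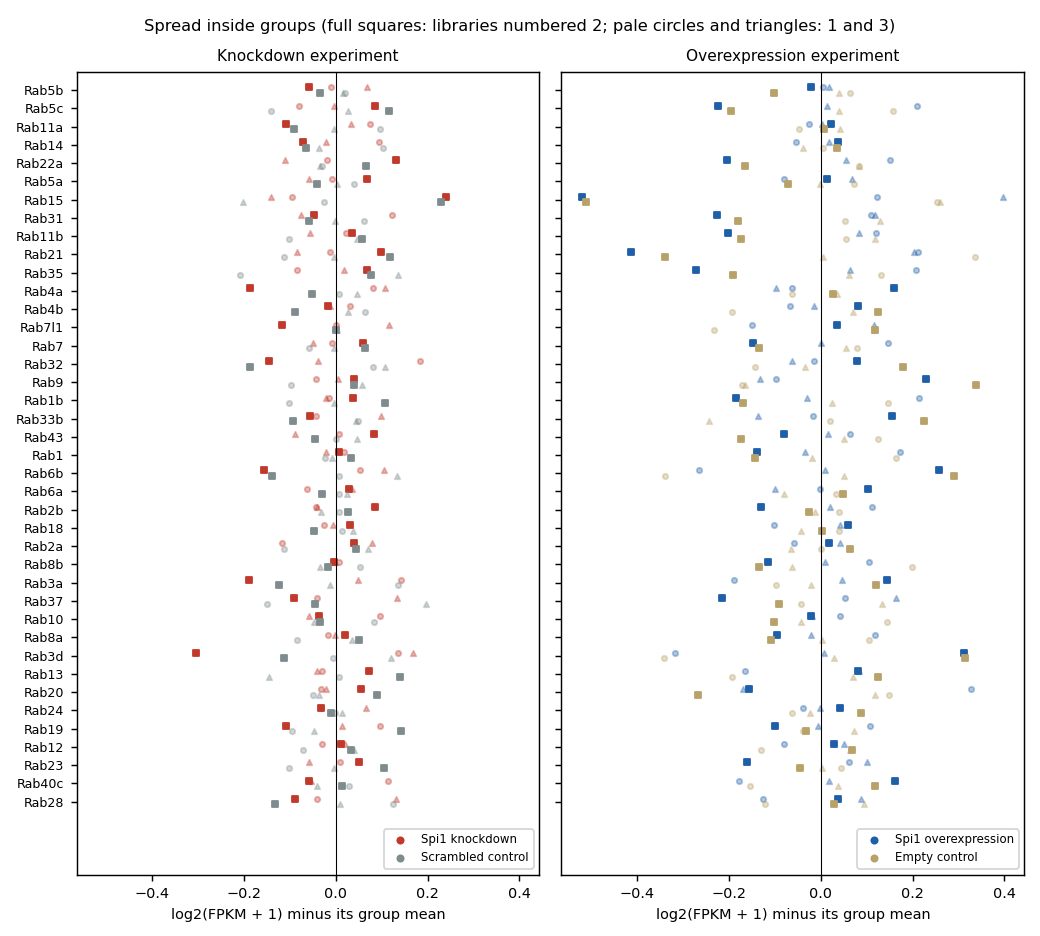
Deviation of each library from the mean of its own group, in log2(FPKM + 1), for the 40 tested Rab genes in the knockdown experiment (left) and the overexpression experiment (right). On the right the full squares of both libraries numbered 2 lie together, to the left of the pale symbols for Rab21 and Rab15 and to their right for Rab9, and on the left they do so less widely.

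Whether the 2 treatments differed in effect was tested across the 12 libraries, as the overexpression effect less the knockdown effect. Spi1 was moved in opposite directions and by unequal amounts, and a gene with opposite responses also differs by this measure. Limma called 2 of the 40 Rab genes, 1 in each direction, and 4.94% of all genes, 1.93% higher and 3.01% lower. The difference was -0.70 ± 0.12 for Rab4b (adjusted p by limma 0.0169) and 0.69 ± 0.16 for Rab1b (adjusted p by limma 0.0331). In both genes nearly all of it is the difference between knockdown and scrambled libraries. For Rab4b the scrambled controls lay below all other libraries, and for Rab1b the knockdown libraries did. The Rab4b call was lost without knockdown library 3, scrambled library 2 or empty library 3, at adjusted p by limma of 0.0508, 0.0517 and 0.0551. The Rab1b call was kept only without overexpression library 2 or empty library 1 and otherwise had an adjusted p by limma of 0.0525 to 0.0904. With the replicate number as a block 14 of the 40 were called, 7 in each direction, when 42% of all genes were, 13% higher and 28.9% lower. After median-of-ratios scaling 3 of the 40 were called, Rab5b and Rab1b as higher and Rab4b as lower, and 5.35% of all genes, 3.07% higher and 2.28% lower. Of the 125 regulators and effectors only Tbc1d9 was called, with a difference of 0.89 ± 0.12 (adjusted p by limma 0.00382), and it kept this call in all 12 fits that left out a library. The block gave 20 higher and 20 lower, and median-of-ratios scaling 4 higher.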

How the data were processed

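The authors deposited 2 tables of FPKM, 1 per experiment, with 24062 entries by gene symbol. The unit is not stated and was read from the values. Per the submitters' processing notes, the tools were STAR 2.5.2a, featureCounts, CASAVA 1.8.2, bcl2fastq and DESeq2 1.14 and the build mm10, with no roles given. Reads were single and 100 bases long, per the labels' protocols. FPKM scales a library by its total, so abundant genes shift all others. Every value above 0 was a whole multiple of a per-gene step within 0.02 reads (17842 of 17842 entries), which gave the depths and the reads for limma-voom.

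Tests used limma (version 3.58.1; R 4.3.3) within each experiment, on log2(FPKM + 1) of genes whose 6-library mean reached 1 FPKM, with BH adjustment and a threshold of 0.05. The difference of effects was an interaction over 12 libraries. The script was tested on simulated data. The 4 entries with shared symbols were left out. Alternatives were a pseudocount of 0.1, no filter, a filter at 5 FPKM, median-of-ratios scaling, trend with robust options, a replicate block, limma-voom and leaving out libraries.

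Groups came from the treatment labels and numbers from the titles. Deviations of same-numbered libraries from their group means correlated across genes at 0.397, 0.540 and 0.345 in knockdown with scrambled. In overexpression with empty they correlated at 0.791, 0.845 and 0.513, and all were above 0.1. Numbers were therefore used as pairs in the replicate block, which was an alternative. The main fits, which gave the calls, SE and intervals unless stated, had no block. Classes follow the main known site of each protein. Rab genes, lists and the naming rule were chosen with earlier results of these data known: called genes, 14 core Rabs and up to 4 called regulators with the smallest p per list. Positions, overlaps and shared 100-base windows are from GENCODE M21.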

Additional observations from a re-analysis of the deposited data

Results flagged for a closer look

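Rab4b, Rab1b and Tbc1d9 showed a different effect of overexpression and of knockdown by the interaction test of limma over 12 libraries. Rab4b had a difference of -0.70 on the log2 scale (adjusted p by limma 0.0169), from 0.02 in overexpression and 0.73 in knockdown. Rab1b had a difference of 0.69 (adjusted p by limma 0.0331), from 0.05 in overexpression and -0.64 in knockdown. Tbc1d9 had a difference of 0.89 (adjusted p by limma 0.00382), from 0.17 in overexpression and -0.72 in knockdown. The scrambled controls lay below all other libraries for Rab4b and above them for Tbc1d9, and the knockdown libraries lay below all others for Rab1b and Tbc1d9.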

How the results depend on the processing

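In knockdown 7 Rab genes were called. With the replicate number as a block, the pairing of libraries, 12 were called, and the difference of effects gave 14 in place of 2. No Rab gene was called in overexpression under any setting. Leaving out 1 library gave 2 to 3 calls in knockdown, 0 to 0 in overexpression and 0 to 2 for the difference. Without both libraries numbered 2, an alternative chosen after seeing the data, 2 were called in knockdown, Rab4b and Rab1b. A pseudocount of 0.1 gave 5, no filter 6, a filter at 5 FPKM 7, median-of-ratios scaling 8, trend with robust options 7 and limma-voom 7. Of all genes, median-of-ratios scaling called 24.1% in knockdown and limma-voom 29.4%. Shares of all genes for the pseudocount, filter, trend and left-out fits are not given. Over all genes the knockdown count was 2945, and 5081 with the block. For the difference it was 549, and 4662 with the block, and for overexpression 0, and 13 with the block. No named gene changed direction with a call. Low genes are limited by depth: the fewest reads of a tested gene in a library were 38, and log2(FPKM + 1) shrinks their changes.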
